A study of Homo sapiens with 15 samples.

Results

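MBD5, TBCK, SLC39A10, FER1L4 and STON1 are 5 genes outside sterol and fatty acid synthesis whose RNA was clearly lower in HSSYII cells after 6 hr with the BRD9 degrader dBRD9A. They were chosen by name from among the large falls of that comparison, 5 of 25681 gene symbols in the count tables. The values of dBRD9A against DMSO therefore chose the genes and are given below as a description, with no test. All 15 RNA-seq libraries came from 1 line, HSSYII, derived from a synovial sarcoma with the SS18-SSX1 fusion. Cells received 100 nM dBRD9A for 6 hr, or DMSO at 0.0001% for 6 hr. In a separate experiment cells were infected with GFP tagged lentivirus expressing 1 of 2 hairpins against the fusion, shSS18-SSX1-1 or shSS18-SSX1-2, or the shRenilla control hairpin, and were collected at 96 hr. Infection was at an MOI of 1.0 with no drug selection, so uninfected cells would have remained in the culture. Each of the 5 groups had 3 libraries, and the sources do not say that these were separate cultures, so p-values measure the spread between libraries, which may be technical.

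BRD9 is a bromodomain subunit of a form of the BAF chromatin remodelling complex, and SS18, the partner of SSX1 in the fusion, is a subunit of the same family of complexes. dBRD9A joins a BRD9 ligand to a ligand of the cereblon ubiquitin ligase, which marks the BRD9 protein for destruction. The 5 genes have unrelated roles. MBD5 is a nuclear protein with a methyl-CpG-binding-like domain, TBCK is a kinase-like protein of endosomes, SLC39A10 carries zinc into the cell, FER1L4 is a noncoding relative of the ferlin membrane proteins, and STON1 is an adaptor of clathrin-mediated endocytosis.

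The libraries held 22584741 to 24710719 counts with dBRD9A and 20761839 to 23230008 with DMSO, and 18580419 to 24669112 with shSS18-SSX1-1, 19643568 to 25792202 with shSS18-SSX1-2 and 20473132 to 27031647 with shRenilla. BRD9 RNA, which a degrader of the protein does not target, was 93.2 ± 3.49 CPM with dBRD9A and 88.5 ± 2.96 CPM with DMSO (CPM are counts scaled by library size and TMM factors; SD, n = 3 each), so it does not check the labels. SSX1 RNA averaged 20.1 ± 1.22 CPM in shSS18-SSX1-1 libraries, 28.7 ± 0.737 CPM in shSS18-SSX1-2 libraries and 63.6 ± 11.8 CPM in shRenilla libraries (SD, n = 3 each). Of 6 genes typical of synovial sarcoma, CD99 was listed at 0 in all 15 libraries and the others were present. Replicate 1 of shRenilla stood apart from its group: its counts differed from the other replicates with a chi-square per degree of freedom of 36.5 and 27.0, against 9.85 or less between all other replicates of a group. TMM scaling rests on most genes staying the same, and no spike-in rows were present in the tables, so a fall shared by all genes would not be seen. All 5 genes passed the filter on low counts in both experiments.

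The promoters of MBD5, SLC39A10 and TBCK are shown so that the start regions of genes that fell after dBRD9A can be compared letter by letter, and these are the genes with a promoter entry in the table used. RefSeq (GRCh38.p14) lists 6 promoter windows of 300 bases for them, 2 each, and 3 of the 5 genes matched an entry. The first window of each is printed as the 250 bases before the start site, 5′ to 3′ on the gene's strand, at chr2:148020761-148021010 (+) for MBD5, chr2:195656708-195656957 (+) for SLC39A10 and chr4:106316684-106316933 (-) for TBCK, with matches to the searched motifs in capitals on either strand.
MBD5: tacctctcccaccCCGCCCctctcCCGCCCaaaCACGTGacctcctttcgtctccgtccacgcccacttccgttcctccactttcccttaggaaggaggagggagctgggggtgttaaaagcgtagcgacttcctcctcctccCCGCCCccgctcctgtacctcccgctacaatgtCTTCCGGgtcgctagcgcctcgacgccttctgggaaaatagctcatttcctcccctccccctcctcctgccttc
SLC39A10: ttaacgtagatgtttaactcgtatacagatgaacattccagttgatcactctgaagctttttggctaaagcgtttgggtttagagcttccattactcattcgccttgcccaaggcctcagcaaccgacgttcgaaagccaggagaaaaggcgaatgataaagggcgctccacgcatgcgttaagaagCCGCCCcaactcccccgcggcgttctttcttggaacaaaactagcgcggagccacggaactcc
TBCK: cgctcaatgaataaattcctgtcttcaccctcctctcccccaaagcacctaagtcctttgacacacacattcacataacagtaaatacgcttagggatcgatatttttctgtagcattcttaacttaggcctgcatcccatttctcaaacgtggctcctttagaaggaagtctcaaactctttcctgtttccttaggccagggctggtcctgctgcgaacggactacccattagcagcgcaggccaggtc
The capitals in MBD5 mark 3 GC boxes (GGGCGG, present in 45.0% of 35116 RefSeq windows of this length), 1 E-box (CACGTG, 7.26%) and 1 ETS site (CCGGAAG, 10.3%). The first SLC39A10 window held 1 GC box and the first TBCK window none of the searched motifs. In the second windows MBD5 had 1 GC box and 1 ETS site, TBCK had 1 GC box and SLC39A10 had no match. The MBD5 windows overlap, and the MBD5 matches in the second are among those already marked in the first. None of the 6 windows held the sterol response element searched (TCACNCCAC, 1.13% of all windows), a cAMP response element (TGACGTCA, 1.85%), a CCAAT box (CCAAT, 34.6%) or a TATA box (TATAAA, 11.5%). GC content was 62.7% and 61.7% in the MBD5 windows, 49.7% and 58.7% for SLC39A10 and 48.7% and 57.7% for TBCK, with a median of 58.7% over all windows. Each match is a run of letters in a window and was not tested as a binding site.

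The 5 genes lay on 3 chromosomes and differed in structure (GRCh37, GENCODE annotation; all positions here are whole genes). MBD5 lies at chr2:148778580-149274540 on the plus strand, has 14 exons and spans 496 kb, longer than 98.8% of 12332 tested genes with an annotated span. TBCK lies at chr4:106962756-107237840 on the minus strand, with 26 exons over 275 kb (96.1% of genes were shorter). SLC39A10 lies at chr2:196440701-196602426 on the plus strand, with 10 exons over 162 kb (90.6% were shorter). STON1 lies at chr2:48756522-48825652 on the plus strand, with 4 exons over 69.1 kb. FER1L4 lies at chr20:34146507-34195484 on the minus strand, has 45 exons over 49.0 kb and is annotated as a transcribed unitary pseudogene. The median span of tested genes was 30.7 kb, so all 5 were longer than the median gene.

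**Figure D1:**
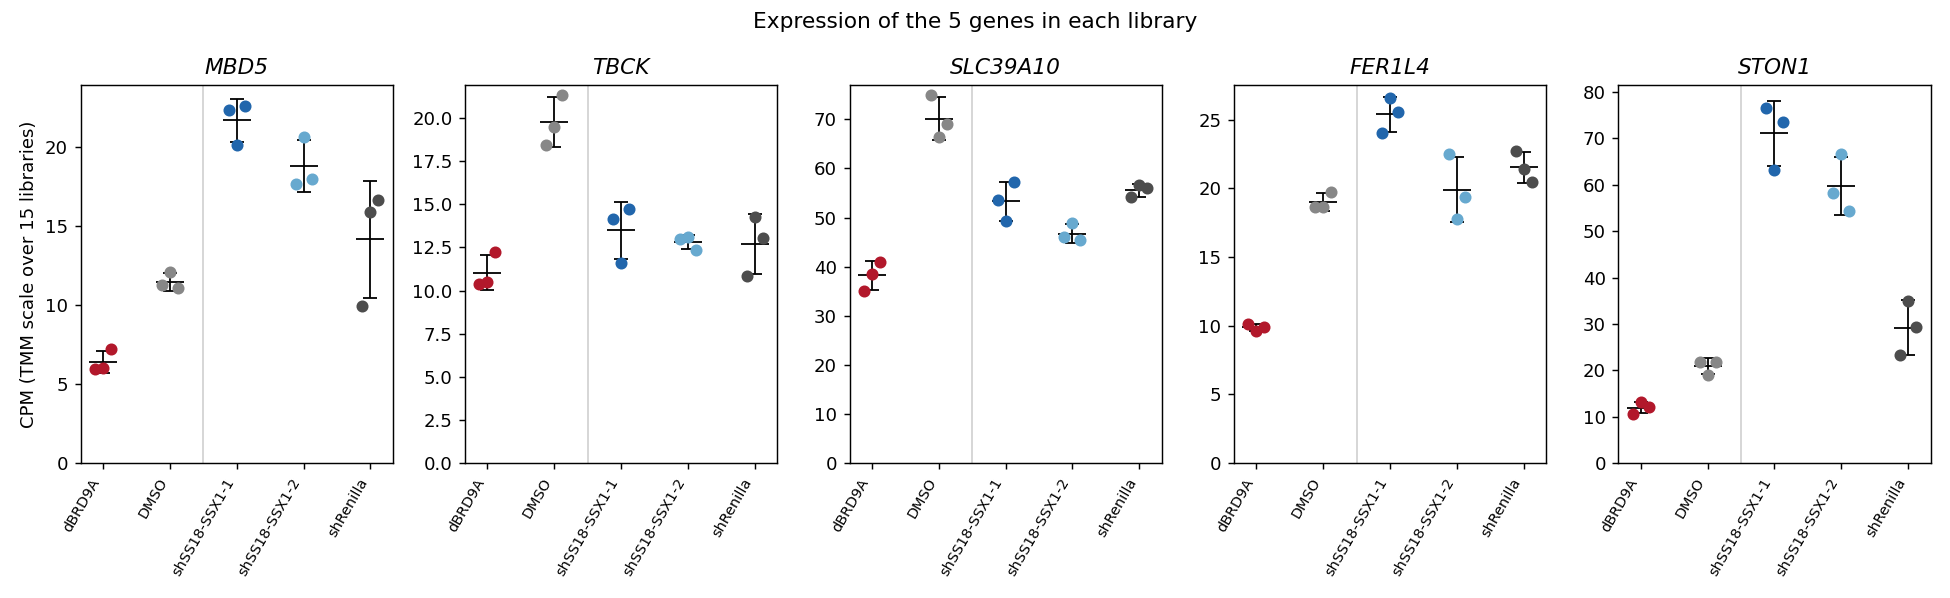
Level of each gene (CPM after TMM scaling over all 15 libraries, linear axis from 0) in each library, with points for libraries and bars for the mean and SD of 3 libraries. The grey line separates the 6 hr experiment from the 96 hr hairpin experiment. In each panel the 3 dBRD9A points lie below the 3 DMSO points, and STON1 is above 50 CPM in all 6 hairpin libraries.

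MBD5 carries a domain related to that of the methyl-CpG-binding proteins and binds the PR-DUB complex, which removes ubiquitin from histone H2A. Loss of 1 copy of the gene causes intellectual disability in humans. MBD5 had 5.93, 6.03 and 7.22 CPM in the dBRD9A libraries (141 to 166 counts) and 11.3, 12.1 and 11.1 CPM in the DMSO libraries (230 to 283 counts). The highest dBRD9A library was well below the lowest DMSO library. The mean was 6.40 ± 0.717 CPM with dBRD9A and 11.5 ± 0.559 CPM with DMSO (SD, n = 3 each). The log2 fold change was -0.84 (standard error 0.0925), which left 55.8% of the DMSO level.

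TBCK joins a kinase-like part to a TBC domain, the fold of proteins that switch off Rab GTPases, and is a subunit of the FERRY complex that links mRNAs to early endosomes. TBCK had 10.4, 10.5 and 12.2 CPM in the dBRD9A libraries, against 18.5, 19.5 and 21.3 CPM in the DMSO libraries. The groups did not overlap, and the log2 fold change was -0.83 (standard error 0.0765), with 56.1% of the DMSO level left. The tables hold 5 transcript rows for TBCK that count largely the same reads, and the ratio of group means was between -0.84 and -0.93 on the log2 scale over them. The count of the row used here exceeded that of the next row by 11.0% to 13.5% of its own count in the dBRD9A libraries. In the DMSO libraries this share was 4.18% to 11.3%.

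SLC39A10, also called ZIP10, is a zinc importer of the cell surface. It had 35.1, 38.6 and 41.0 CPM in the dBRD9A libraries (834 to 966 counts) and 75.0, 66.4 and 69.0 CPM in the DMSO libraries (1435 to 1670 counts). The groups were far apart, with the highest dBRD9A library well below the lowest DMSO library. The log2 fold change was -0.87 with the smallest standard error of the 5 genes, 0.0517, and 54.8% of the DMSO level remained.

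FER1L4 is a ferlin gene that no longer encodes a ferlin in humans, and its RNA is counted as a long noncoding RNA. It fell the most of the 5 genes. FER1L4 had 10.1, 9.59 and 9.88 CPM in the dBRD9A libraries and 18.6, 18.7 and 19.8 CPM in the DMSO libraries. The means were 9.87 ± 0.277 CPM with dBRD9A and 19.0 ± 0.641 CPM with DMSO (SD, n = 3 each). The log2 fold change was -0.94 (standard error 0.0715), which left 52.2% of the DMSO level.

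STON1 encodes stonin 1, a relative of the medium subunit of the clathrin adaptor AP-2. It had 10.6, 13.1 and 12.2 CPM in the dBRD9A libraries, against 21.9, 18.9 and 21.8 CPM in the DMSO libraries, and the groups did not overlap. The log2 fold change was -0.79 (standard error 0.0768), with 57.9% of the DMSO level left. Its exons are shared with the readthrough transcript STON1-GTF2A1L, which starts 542 bp away on the same strand, so reads in the shared exons cannot be told apart. The readthrough row held 41.7% to 43.6% of the STON1 count in the dBRD9A libraries and 45.0% to 46.1% in the DMSO libraries. It differed between dBRD9A and DMSO by -0.88 on the log2 scale, while GTF2A1L itself had at most 2 counts in any of the 6 libraries.

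Set side by side, the 5 genes were left at 52.2% to 57.9% of the DMSO level, and in an ordering of 10797 genes (mean of 5 CPM or more) by the size of the fall, FER1L4 was 2, SLC39A10 was 6, MBD5 was 8, TBCK was 10 and STON1 was 11. Of 13652 genes tested between dBRD9A and DMSO, 81 were lower by more than 1.5-fold at an adjusted p under 0.05 (0.593%; edgeR's quasi-likelihood test with Benjamini-Hochberg adjustment), and all 5 genes are among them because they were chosen so. The median log2 fold change over all tested genes was 0.01. Beyond the error of counting itself, gene levels within a group of 3 varied with a common coefficient of variation of 2.78% in the 6 hr experiment. This coefficient was 8.91% in the hairpin experiment, so the same fold is seen with less error at 6 hr.

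The hairpin experiment asked what hairpins against the fusion did, which lowered SSX1 RNA in part, and there the 5 genes did not move together. MBD5 was higher with the fusion hairpins, SLC39A10 was lower with shSS18-SSX1-2, and TBCK and FER1L4 did not pass the test against shRenilla. STON1 was about 2-fold higher in every comparison with shRenilla, and it was picked earlier for its opposite direction, so its values carry no test. At an adjusted p under 0.05 with no fold required, 22.5% of 14269 genes were higher and 22.1% were lower in the mean of both hairpins against shRenilla, and 1 of the 4 genes tested here passed in that mean. With the fold of 1.5 also required, 12.5% of genes were higher and 5.9% were lower, and none of those 4 passed (edgeR, where 2 of the 4 had an unadjusted p under 0.05).

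MBD5 had 22.4, 20.2 and 22.6 CPM with shSS18-SSX1-1 and 17.7, 20.7 and 18.0 CPM with shSS18-SSX1-2, against 9.93, 15.9 and 16.6 CPM with shRenilla. All 6 hairpin libraries were above the 3 shRenilla libraries, and the low shRenilla value was that of replicate 1, the library that stood apart. Over both hairpins the log2 fold change was 0.51 (edgeR adjusted p = 0.00804, standard error 0.137), a 1.42-fold higher level. Without replicate 1 of shRenilla it was 0.32 (edgeR adjusted p = 0.0117). Taken alone, shSS18-SSX1-1 gave 0.62 (adjusted p = 0.00535) and shSS18-SSX1-2 gave 0.39 (adjusted p = 0.0671) in edgeR, and without replicate 1 of shRenilla these were 0.43 (adjusted p = 0.00341) and 0.20 (adjusted p = 0.135). The difference between the hairpins did not pass the test and was -0.23 (shSS18-SSX1-2 minus shSS18-SSX1-1, 95% interval -0.56 to 0.10, edgeR adjusted p = 0.859).

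STON1 had 76.5, 63.1 and 73.6 CPM with shSS18-SSX1-1 and 58.2, 66.5 and 54.3 CPM with shSS18-SSX1-2, against 23.3, 35.0 and 29.4 CPM with shRenilla. The lowest hairpin library was above the highest shRenilla library by a wide margin. The log2 fold change over both hairpins was 1.15 (standard error 0.120), and it was 1.28 with shSS18-SSX1-1 and 1.01 with shSS18-SSX1-2. STON1-GTF2A1L moved with it, by 1.06 on the log2 scale, and GTF2A1L had 3 to 15 counts per library in this experiment.

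SLC39A10 had 53.6, 49.2 and 57.2 CPM with shSS18-SSX1-1 and 45.9, 48.9 and 45.3 CPM with shSS18-SSX1-2, against 54.1, 56.6 and 55.9 CPM with shRenilla. The shSS18-SSX1-2 libraries lay below all shRenilla libraries, and those of shSS18-SSX1-1 overlapped them. In edgeR the log2 fold change was -0.28 for shSS18-SSX1-2 (adjusted p = 0.0170), -0.06 for shSS18-SSX1-1 (adjusted p = 0.571) and -0.17 for their mean (standard error 0.0694, adjusted p = 0.0630). The shSS18-SSX1-2 call was lost when its replicate 1 (adjusted p = 0.0857), its replicate 3 (adjusted p = 0.0703) or shRenilla replicate 3 (adjusted p = 0.0523) was left out of the edgeR fit. The difference between the hairpins was -0.21 (95% interval -0.39 to -0.04, edgeR adjusted p = 0.457).

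TBCK had 14.1, 11.6 and 14.7 CPM with shSS18-SSX1-1 and 13.0, 13.1 and 12.4 CPM with shSS18-SSX1-2, against 10.8, 14.3 and 13.1 CPM with shRenilla. The 3 groups overlapped, and the log2 fold change of 0.04 over both hairpins had a 95% interval of -0.19 to 0.27 (edgeR adjusted p = 0.785).

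FER1L4 had 24.0, 26.6 and 25.5 CPM with shSS18-SSX1-1 and 22.5, 17.8 and 19.4 CPM with shSS18-SSX1-2, against 22.7, 21.4 and 20.5 CPM with shRenilla. The shSS18-SSX1-1 libraries were above all others, and those of shSS18-SSX1-2 overlapped shRenilla. The log2 fold change was 0.23 with shSS18-SSX1-1 (edgeR adjusted p = 0.0824), -0.14 with shSS18-SSX1-2 (edgeR adjusted p = 0.306) and 0.04 for their mean (95% interval -0.14 to 0.23, edgeR adjusted p = 0.712). FER1L4 showed the widest gap between the hairpins of the 5 genes, -0.37 (standard error 0.101, 95% interval -0.59 to -0.15), which did not pass adjustment over all genes (edgeR unadjusted p = 0.0026, adjusted p = 0.195). Between the hairpins 0.119% of 14269 genes were called at the same thresholds, 17 genes.

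**Figure D2:**
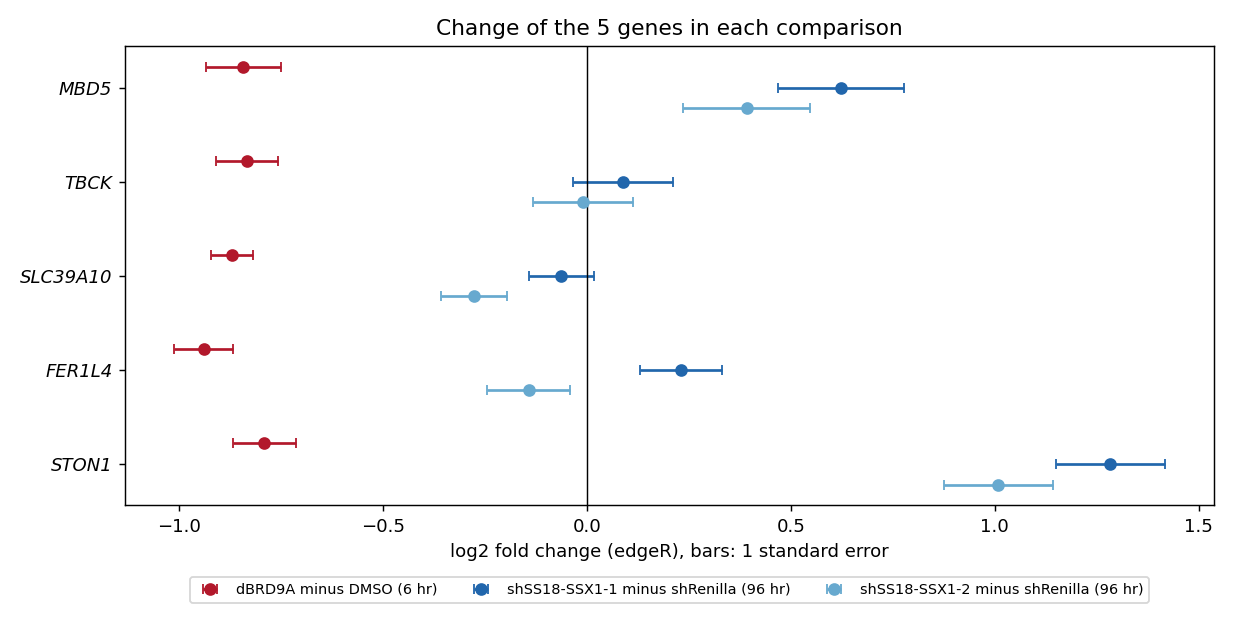
Log2 fold change of each gene with 1 standard error (edgeR; n = 3 libraries per group) for dBRD9A minus DMSO at 6 hr and for each fusion hairpin minus shRenilla at 96 hr. The 5 dBRD9A points lie between -0.94 and -0.79, while the hairpin points run from -0.28 for SLC39A10 to 1.28 for STON1.

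In these cultures other cell-type genes moved with the fusion hairpins, and their part in the changes of MBD5 and STON1 was not tested. The summed level of 7 fibroblast markers was 682 to 706 CPM with shSS18-SSX1-1 and 875 to 917 CPM with shSS18-SSX1-2, against 37.3 to 51.9 CPM with shRenilla, and 4 of 4 tested markers were higher. COL1A2, DCN and LUM stayed near 0, at 0.128, 0.0331 and 0.103 CPM with shSS18-SSX1-1 and 0.258, 0.0302 and 0.0263 CPM with shSS18-SSX1-2. For 5 smooth muscle markers the sums were 683 to 722 CPM and 682 to 821 CPM with these hairpins, against 32.2 to 37.3 CPM with shRenilla, with 4 of 5 tested markers higher. For 5 epithelial markers they were 65.4 to 68.2 CPM and 134 to 159 CPM, against 0.0484 to 0.491 CPM. KRT8 and KRT18 made up most of these sums, at 57.9 and 84.2 CPM with shSS18-SSX1-2. EPCAM and KRT19 were at 0 in shRenilla and stayed near 0 with the hairpins (0.0776 and 0.130 CPM with shSS18-SSX1-2). Skeletal muscle markers were higher for 3 of 4 tested (MYOG at 0 in all 3 groups), and 2 of 2 tested neural markers were lower. At 6 hr the fibroblast sum was 52.2 to 56.1 CPM with dBRD9A and 57.0 to 58.6 CPM with DMSO, and COL1A2 was at 0 in both groups. In bulk RNA, a change in the share of cells that express a gene and a change in RNA per cell cannot be told apart.

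Over all 5 groups the order of levels differed from gene to gene. MBD5 and STON1 were highest with shSS18-SSX1-1, then shSS18-SSX1-2, shRenilla, DMSO and dBRD9A, and their levels correlated across the 15 libraries with r = 0.959 (0.903 in the 9 hairpin libraries alone). MBD5 in shRenilla (9.93 to 16.6 CPM) overlapped DMSO (11.1 to 12.1 CPM), whereas STON1 in shRenilla did not. TBCK and SLC39A10 were highest with DMSO, with r = 0.861 between them (0.386 in the hairpin libraries alone), and TBCK in shRenilla (10.8 to 14.3 CPM) overlapped dBRD9A (10.4 to 12.2 CPM). For TBCK and STON1 r was 0.0561 over the 15 libraries and 0.464 in the hairpin libraries alone. FER1L4 was highest with shSS18-SSX1-1 and lowest with dBRD9A. Its r over the 15 libraries was 0.855 with MBD5, 0.795 with STON1 and 0.613 with SLC39A10 (0.135, 0.214 and 0.300 in the hairpin libraries alone). These correlations are descriptions over libraries of 1 line that share treatments and collection times, and the 15 include the dBRD9A and DMSO libraries that chose the genes.

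The control states differed too, and these values set how far the experiments can be compared. In a fit of all 15 libraries, shRenilla minus DMSO was -0.64 on the log2 scale for TBCK, -0.34 for SLC39A10, 0.18 for FER1L4, 0.29 for MBD5 and 0.48 for STON1. Virus, time and experiment cannot be told apart in this difference. The dBRD9A effect minus the knockdown effect was -1.96 for STON1, -1.37 for MBD5, -1.01 for FER1L4, -0.90 for TBCK and -0.72 for SLC39A10. These differences have the rule's own comparison in them and were not tested.

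The genes most like each of the 5 were found by Pearson's r of log2 CPM over the 15 libraries among 11065 genes. MBD5 was closest to WDSUB1 (r = 0.978), TMLHE (r = 0.975) and ATRN (r = 0.974). TBCK was closest to ASCC3 (r = 0.940) and SLC39A10 to TPP2 (r = 0.962), and TPP2 also came next for TBCK (r = 0.920). FER1L4 was closest to ABHD15 (r = 0.955) and BTN3A2 (r = 0.943). STON1 was closest to its readthrough row (r = 0.998), then EPB41L5 (r = 0.992) and FBXL7 (r = 0.992).

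Genes beside the 5 were measured to see whether whole neighbourhoods moved after dBRD9A, and most did not fall with them. ORC4, a subunit of the origin recognition complex, overlaps MBD5 on the opposite strand with start sites 593 bp apart, and fell by 0.20 on the log2 scale (adjusted p = 0.00108 from edgeR). EPC2, a subunit of the NuA4 acetyltransferase complex on the other side of MBD5, rose by 0.25 (edgeR adjusted p = 0.000219). AIMP1, a scaffold of the tRNA synthetase complex, overlaps TBCK on the opposite strand with start sites 1139 bp apart, and differed by 0.07 (edgeR adjusted p = 0.195). Without a stated strand setting, reads where ORC4 or AIMP1 overlaps its neighbour cannot be told apart.

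STK17B, a kinase gene 395881 bp from SLC39A10, rose by 0.19 (edgeR adjusted p = 0.0069), and by 0.10 without DMSO replicate 2, where it did not pass (edgeR adjusted p = 0.103). TMEFF2, the nearest gene on the other side that passed the filter on low counts, lies 3381042 bp away and rose by 0.78 (edgeR adjusted p = 0.0013). Beside FER1L4, ERGIC3 at 1102 bp showed no difference beyond error (log2 fold change -0.00, edgeR adjusted p = 0.958), and SPAG4 had -0.28 (edgeR adjusted p = 0.062). PPP1R21, 13992 bp from STON1 and itself a subunit of the FERRY complex with TBCK, was at -0.00 with dBRD9A (edgeR adjusted p = 0.963) and rose by 0.47 in the knockdown (edgeR adjusted p = 0.00109), where STON1 was higher as well.

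The wider groups of each gene were then counted, from lists chosen with earlier results of these data known and leaving the 5 genes out. An adjusted p under 0.05 at any fold was met by 18.2% of 13652 genes as lower and 17.7% as higher after dBRD9A. In the knockdown it was met by 22.1% of 14269 genes as lower and 22.5% as higher. A fit of all 15 libraries, which shares the wider spread of the hairpin experiment, called fewer list members after dBRD9A: 1 as lower of the zinc importers, 2 of the TBC genes, 2 of the AP-2 genes and 21 of the sterol and fatty acid genes. Of 10 other genes with a methyl-CpG-binding-type domain, 1 was lower and 5 were higher after dBRD9A (median log2 fold change 0.09, 0.01 over all genes). MBD3, a subunit of the NuRD complex, rose by 0.26, SETDB1, a histone H3 lysine 9 methyltransferase, rose by 0.22, and BAZ2A fell by 0.17. In the knockdown 3 of the 10 were lower, MBD3 among them at -0.40, and 1 was higher, BAZ2B at 0.49. Without replicate 1 of shRenilla MBD3 was at -0.21 (edgeR adjusted p = 0.187) and 1 of the 10 was lower. Of 10 genes of the PR-DUB complex and its partners, 3 were lower after dBRD9A, with KDM1B at -0.41, FOXK2 at -0.22 and FOXK1 at -0.18, and 4 were higher (1 without DMSO replicate 3). BAP1, the ubiquitin protease of that complex, did not pass the test (-0.03). In the knockdown 1 of these 10 was lower, ASXL3 at -0.50.

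Of the 4 other FERRY subunits tested with dBRD9A, PDDC1 (-0.20) and CRYZL1 (-0.13) were lower, C12orf4 (0.14) was higher and PPP1R21 did not pass. The CRYZL1 and C12orf4 calls were lost without dBRD9A replicate 2 (edgeR adjusted p = 0.146 and 0.101) and when some other single libraries were left out. The fall of TBCK was several times larger than those of its partner subunits, but TBCK was chosen for a large fall and they were not. Of 33 other TBC domain genes tested, 10 were lower and 4 were higher (median -0.06; 6 and 2 without dBRD9A replicate 1), and TBC1D8B had the largest fall, 0.52, with 16.5 CPM with dBRD9A and 23.8 CPM with DMSO. In the knockdown 6 of the 33 were lower (3 without shSS18-SSX1-1 replicate 3) and 7 higher, and TBC1D2 rose by 2.27 on the log2 scale.

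After dBRD9A 3 of 10 tested zinc importers beside SLC39A10 fell, where 18.2% of all genes were lower. The exporter SLC30A1 and the metallothioneins MT1X and MT2A rose, where 17.7% of all genes were higher. Other exporters went both ways. Zinc importers of the ZIP family bring zinc into the cytosol, ZnT proteins remove it, and metallothioneins bind it, while MTF1 is the factor that senses zinc and switches on metallothionein genes. Of 10 other ZIP genes tested, 3 were lower and none was higher (median -0.10). SLC39A14 fell by 0.27, to 117 CPM with dBRD9A, against 142 CPM with DMSO, SLC39A6 fell by 0.16 and SLC39A1 by 0.14. SLC39A10 had the largest difference of the family, but it was chosen for a large fall, so this place says nothing more. SLC39A7 was listed at 0 in all 15 libraries.

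SLC30A1, the zinc exporter of the cell surface and a known MTF1 target, averaged 26.8 ± 2.25 CPM with dBRD9A and 18.7 ± 1.35 CPM with DMSO (SD, n = 3 each), and rose by 0.53 (edgeR adjusted p = 1.91e-07). MT1X averaged 5.11 ± 0.492 CPM with dBRD9A and 2.30 ± 0.230 CPM with DMSO, and rose by 1.16 (edgeR adjusted p = 7.1e-08). MT2A rose by 0.77 and MTF1 by 0.27, so all 3 tested genes of the 10 on the metallothionein list were higher. Of 7 ZnT genes tested, 2 were higher (SLC30A1 and SLC30A3, the second at 1.01 CPM with dBRD9A and 0.448 CPM with DMSO), 1 was lower (SLC30A5, -0.12, not passing without dBRD9A replicate 1 or DMSO replicate 3) and 4 did not pass (median of the 7 -0.05). Metallothionein genes are near-identical copies, so their reads may be split between copies.

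In the knockdown the zinc genes followed another pattern. SLC30A1 was again higher, by 0.55 (edgeR adjusted p = 7.85e-05), whereas MT1X fell by 0.67 (edgeR adjusted p = 0.00257) and MT2A did not pass the test (-0.24). Of 8 ZnT genes tested, 1 was higher and 2 were lower. The lower genes were SLC30A3 (-1.33, edgeR adjusted p = 0.0247) and SLC30A10 (-0.81, edgeR adjusted p = 0.0231), which averaged 0.841 and 0.690 CPM with shRenilla. Among the ZIP genes SLC39A6 (-0.18) and SLC39A9 (-0.17) were lower and SLC39A13 (0.37) was higher, but SLC39A6 passed in 8 and SLC39A9 in 5 of 18 other settings, most losses coming with single libraries left out. The difference between the experiments was not tested for these genes.

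**Figure D3:**
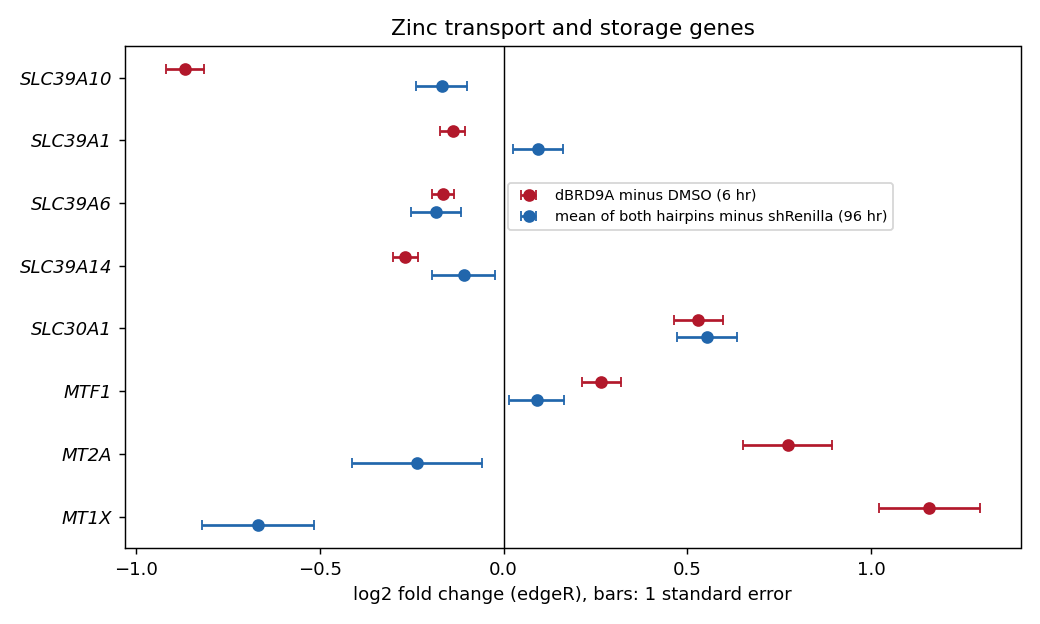
Log2 fold change with 1 standard error (edgeR) of SLC39A10 and of genes of zinc import, export and storage, for dBRD9A minus DMSO at 6 hr (red) and for the mean of both fusion hairpins minus shRenilla at 96 hr (blue). The 4 importers shown lie below 0 with dBRD9A and SLC30A1, MTF1, MT2A and MT1X lie above 0, while MT1X lies at -0.67 in the knockdown. Apart from SLC39A10, chosen for its fall, the genes shown were picked among those that passed the test after dBRD9A. Their side of 0 with dBRD9A was therefore set by the choice. Importers and exporters that did not pass are left out, as are SLC30A3 and SLC30A5.

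Endocytic partners of the stonins moved mostly down after dBRD9A. Of 11 tested genes of the AP-2 adaptor and its partners, 7 were lower and none was higher (median -0.16), all by less than 1.5-fold. Over all genes 18.2% were lower after dBRD9A. In the other settings 2 to 7 of the 11 were lower and 0 or 1 was higher, with 2 lower in the fit of all 15 libraries. FCHO1, which starts clathrin-coated pits, fell by 0.40, AP2A2, an AP-2 large subunit, by 0.30 and ITSN1, a scaffold of coated pits, by 0.23. STON2, the closest relative of STON1, was at 0.291 CPM with dBRD9A and 0.166 CPM with DMSO and was not tested. In the knockdown 3 of the 11 were higher and none lower (5 without shRenilla replicate 1), with AP2A1 at 0.63, ITSN2 at 0.29 and EPS15 at 0.28. Over all genes 22.5% were higher there, a share near that of this list.

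Of 5 coding ferlins 2 could be tested after dBRD9A, and neither passed. DYSF, which repairs the plasma membrane in muscle, had a log2 fold change of 0.24 with dBRD9A (edgeR adjusted p = 0.052), and OTOF, the ferlin of inner hair cells, had -0.34 (edgeR adjusted p = 0.248), at 1.003 CPM with dBRD9A and 1.28 CPM with DMSO. DYSF passed as higher in 6 of 15 other settings, and OTOF passed as lower in 1, with transcript rows summed (edgeR adjusted p = 0.0283). MYOF was near 0 in both 6 hr groups. In the knockdown MYOF averaged 14 ± 2.17 CPM in shSS18-SSX1-1 libraries and 29.5 ± 3.75 CPM in shSS18-SSX1-2 libraries, against 0.0633 ± 0.0743 CPM with shRenilla (SD, n = 3 each). OTOF rose by 2.29 there (edgeR adjusted p = 0.000134).

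For scale, 27 of 31 tested genes of sterol and fatty acid synthesis were lower after dBRD9A at any fold and none was higher (median -0.35), with 4 past the fold of 1.5. The falls of the 5 genes, 0.79 to 0.94, lie near that of SCD, a fatty acid desaturase (0.91), in the same libraries. In the knockdown 9 of the 31 were lower and 1 was higher, where 22.1% of all genes were lower and 22.5% higher. It was 5 lower when shRenilla replicate 3, shSS18-SSX1-1 replicate 1 or shSS18-SSX1-2 replicate 1 or 2 was left out. It was 12 lower without shRenilla replicate 2 and 14 lower in the fit of all 15 libraries.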

How the data were processed

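RNA was measured in 15 HSSYII libraries of 5 groups. Per the submitters' processing notes, the authors aligned reads with STAR to GRCh37/hg19 and counted them with featureCounts, and they deposited raw counts per transcript row. Tool versions and strand setting were not given in the sources used here. In the table of dBRD9A replicate 2, 4535 cells (unit other) hold the end of a broken symbol before the deposited count, and the last number was read. The row with the highest total per symbol was kept. Symbols turned into dates, in 80 rows, were restored except in 2.

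The test was edgeR's robust quasi-likelihood test (edgeR 4.0.16, R 4.3.3, TMM, filterByExpr minimum count 10), run separately for each experiment, with Benjamini-Hochberg adjustment over all genes. Genes were called past a fold of 1.5 where the adjusted p was also below 0.05. List counts use the adjusted p alone. The standard error is the log2 fold change over the square root of F. CPM were computed on 1 TMM scale over all libraries. The genes named are the 5 genes, their neighbours, the 3 genes most like each, and list members past the test by size or role. Members and lists were chosen with earlier results of these data known. Alternatives were DESeq2 1.42.0, limma 3.58.1 voom, other scalings and filters, omission of single libraries and a replicate block. Promoters are from RefSeq, GRCh38.p14.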

Additional observations from a re-analysis of the deposited data

How the results depend on the processing

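For dBRD9A against DMSO all 80 values of the 5 genes over 16 settings kept their direction and moved by less than the spread between libraries (MBD5 -0.94 to -0.79, SLC39A10 -0.92 to -0.81, FER1L4 -0.96 to -0.92). For the mean of both hairpins against shRenilla 93 of 95 values over 19 settings kept their call. MBD5 passed the test in 19 of 19 settings (log2 fold change 0.32 to 0.65, adjusted p 0.00123 to 0.0169), and SLC39A10 passed where transcript rows were summed (-0.18, adjusted p = 0.0481 in edgeR) and in the fit of all 15 libraries (-0.15, adjusted p = 0.0497). MBD5 with shSS18-SSX1-2 alone passed in 5 of 19 settings, and FER1L4 differed between the hairpins only in the fit of all 15 libraries (-0.35, adjusted p = 0.0401 in edgeR). The lowest transcript row of each gene and all settings for single hairpins, lists and other genes were added after the data were seen. Genes called between dBRD9A and DMSO numbered 386, with 256 by DESeq2, 4906 with no fold threshold, 116 with a 2-fold threshold and 357 to 401 when 1 library was left out. For the knockdown they numbered 2622, with 6368 and 1394 at these thresholds and 2523 to 2858 when 1 library was left out. Between the hairpins they numbered 17, with 26 under DESeq2 size factors, 78 with no filter, 87 by DESeq2, 106 in the fit of all 15 libraries and 5 to 60 when 1 library was left out. Of 645 values of 43 other named genes after dBRD9A 592 kept their call, 44 lost it, 9 gained it and none turned round, and in the knockdown it was 713, 52, 9 and 0 of 774. In the fit of all 15 libraries the dBRD9A calls at any fold, lower and then higher, were 0 and 1 for the MBD family, 2 and 0 for PR-DUB, 0 and 0 for FERRY, 2 and 1 for TBC genes, 1 and 0 for ZIP, 0 and 1 for ZnT, 0 and 3 for metallothioneins with MTF1, and 2 and 0 for AP-2 partners. SLC30A1, MT1X, MT2A, MTF1 and SLC39A14 passed after dBRD9A in 15 of 15 settings. Replicate numbers did not pair the libraries (r of same-numbered libraries -0.0101 to 0.0123 for dBRD9A with DMSO and -0.275 to 0.221 in the hairpin experiment), and a replicate block gave MBD5 0.52 (adjusted p = 0.00704 in edgeR) and 396, 2616 and 13 called genes, in the same order of comparisons. The causes of these shifts were not tested.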
